A study of Mus musculus with 6 samples.

Results

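The 10 integrin subunits described here are Itga1, Itga5, Itga6, Itgav, Itgb1 and Itgb5, which bind extracellular matrix, and Itgb2, Itgam, Itgax and Itgal, which leukocytes use. They were chosen by name, as the rows of the count table whose Ensembl identifiers carry these mouse symbols. All 10 were found among 55802 rows, and all 10 passed the filter on low counts that left 15579 genes for testing. The libraries measured messenger RNA in livers of WT C57BL/6 mice that had received CCl4 (carbon tetrachloride, a solvent used to injure the liver and bring on fibrosis) or oil as the control. Each group held 3 libraries. The labels give no dose, duration or age. They also do not state whether each library is a different mouse, so the p-values rest on library-to-library spread that could be partly technical.

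Integrins are cell surface receptors made of 1 alpha and 1 beta subunit, and the pair decides which ligand is held. Talin and kindlin proteins bind the tail of the beta subunit inside the cell and switch the receptor to its active form, and adaptors and kinases then connect it to actin. In fibrotic liver, matrix integrins are known from stellate cells, endothelium and bile duct cells, and those that hold αv can release active TGF-beta from its latent complex. The β2 integrins carry leukocytes through vessel walls and serve macrophages as receptors for complement fragments and fibrinogen.

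Library totals ran from 18929972 to 20042731 counts. Levels are given as CPM, the counts of each library brought to a common total after TMM scaling, and log2 fold changes are CCl4 over control. Called means a Benjamini-Hochberg adjusted p under 0.05 over all 15579 genes in edgeR's quasi-likelihood test. Hepatocyte markers were abundant in every library and summed to 96977 to 100862 CPM in CCl4 livers and 97088 to 104994 CPM in controls. Of 10 listed symbols 9 matched. Of these 1 was called higher and 3 lower, where 21.2% of all genes tested were called higher and 20.1% lower. CCl4 replicate 3 stood apart from the other 2 CCl4 libraries on the second principal component of log2(CPM + 1), which held 8.87% of the variance, and its cell cycle markers summed to 106 CPM against 197 and 219.6 CPM in CCl4 replicates 1 and 2. In controls these markers summed to 12.2 to 17.4 CPM. All 8 were called higher in CCl4 livers (median log2 fold change 3.72), against the same 21.2% of all genes. They thus shared the direction between groups with the integrin subunits called higher. Within the CCl4 group the 10 subunits varied, with replicate 3 at 0.489 (Itgam) to 1.28 (Itgal) of the mean of the other 2 libraries. The part of cell cycle genes in the integrin changes was not tested. Several results that shift with this library are given with and without it.

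In CCl4 livers 9 of the 10 subunits were called higher and 0 lower, where 41.3% of all genes tested were called, 21.2% higher and 20.1% lower. Over all genes 3303 were higher and 3124 lower, a split that moved to 4103 and 2177 with upper quartile scaling and to 4824 and 1676 with library size alone. The same count of 9 subunits was called higher under both scalings. The median log2 fold change of the 10 was 0.69, against 0.00056 for all genes tested. Of the same 9 subunits the CCl4 and control libraries did not overlap, which was so with CCl4 above control for 27.6% of all genes. Itgam, Itgax and Itga6 had the highest fold changes among the 10, at 5.95, 4.72 and 3.86. Itgb1, the beta subunit shared by most matrix integrins, had no call. In bulk tissue, more cells of a type and more RNA per cell cannot be told apart.

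**Figure D1:**
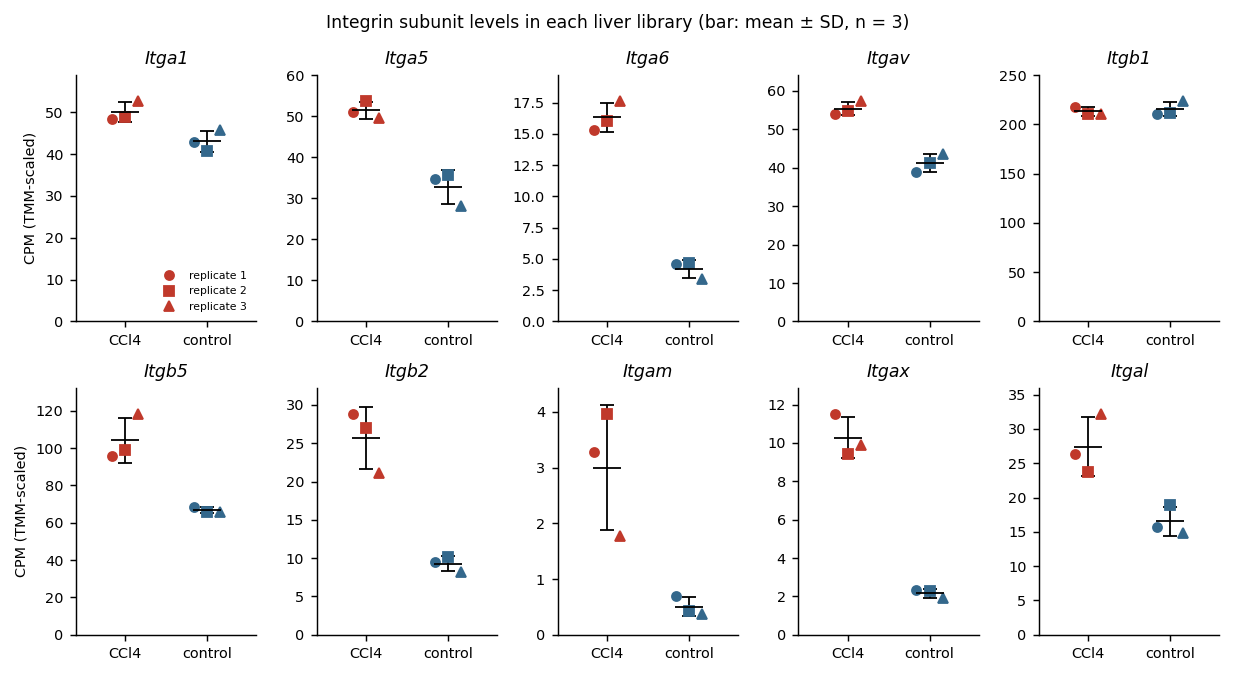
TMM-scaled CPM of each of the 10 integrin subunits (vertical axes start at 0) in the 3 CCl4 libraries (red, left) and the 3 control libraries (blue, right), with symbols for the replicate numbers and bars for mean ± SD. The groups are separate in every panel except that of Itgb1, and CCl4 replicate 3 is the lowest CCl4 library for Itgam (1.77 CPM) and the highest for Itgal (32.1 CPM).

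Itgb1 (ENSMUSG00000025809) encodes β1, the partner of α1, α5, α6 and αv. It stood at 218, 211 and 210.4 CPM in CCl4 libraries, against 211, 212 and 224 CPM in controls. The groups overlapped. The log2 fold change was -0.015 (95% interval -0.14 to 0.11, adjusted p = 0.854), so the interval for the ratio ran from 0.909 to 1.08. The sign of this small difference depended on the scaling: it was 0.072 with upper quartile scaling and 0.13 with library size alone, without a call in either (adjusted p = 0.303 and 0.0735), and 0.0080 without control replicate 3.

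Itga1 (ENSMUSG00000042284) encodes α1, which with β1 binds collagens and basement membrane collagen in particular. It stood at 48.5, 48.9 and 52.7 CPM in CCl4 libraries, against 42.9, 40.7 and 45.7 CPM in controls. Every CCl4 library lay above every control, by a small margin (log2 fold change 0.22, SE 0.06, adjusted p = 0.0223, 1.16-fold). This was the smallest of the 9 rises, and its log2 fold change was 0.36 with library size alone. Its call was lost in DESeq2 (adjusted p = 0.0749), without CCl4 replicate 3 (0.0579), without control replicate 1 (0.0742) and without control replicate 2 (0.079).

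Itga5 (ENSMUSG00000000555) encodes α5, which with β1 forms the classical fibronectin receptor. It stood at 51.1, 53.8 and 49.6 CPM in CCl4 libraries, against 34.8, 35.7 and 28.0 CPM in controls. The CCl4 libraries were higher and close together, and control replicate 3 was the lowest of the controls. The rise was 1.57-fold (95% interval 1.37 to 1.80, adjusted p = 4.39e-04).

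Itga6 (ENSMUSG00000027111) encodes α6, a laminin receptor subunit that pairs with β1 and, in epithelia, with β4. It stood at 15.3, 16.02 and 17.6 CPM in CCl4 libraries, against 4.63, 4.65 and 3.39 CPM in controls. The lowest CCl4 library was thus well above the highest control. Among the matrix-binding subunits of the 10 it had the highest fold change, 3.86 (95% interval 3.14 to 4.75, log2 fold change 1.95, SE 0.13, adjusted p = 9.89e-06), and the call held in all 14 alternatives tried.

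Itgav (ENSMUSG00000027087) and Itgb5 (ENSMUSG00000022817) encode αv and β5, which together bind vitronectin. Itgav stood at 53.9, 54.8 and 57.3 CPM in CCl4 libraries, against 38.9, 41.1 and 43.6 CPM in controls (1.34-fold, 95% interval 1.22 to 1.48, adjusted p = 5.30e-04). Itgb5 stood at 95.7, 99.0 and 118 CPM in CCl4 libraries, against 68.7, 65.8 and 65.8 CPM in controls (1.56-fold, 95% interval 1.38 to 1.77, adjusted p = 2.33e-04). Both rose, and neither overlapped between groups. CCl4 replicate 3 was the highest library for Itgb5, whose log2 fold change was 0.64 with it and 0.54 without it (adjusted p = 2.51e-05).

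Itgb2 (ENSMUSG00000000290) encodes β2 (CD18), the beta subunit of leukocytes. It stood at 28.8, 27.1 and 21.1 CPM in CCl4 libraries, against 9.53, 10.2 and 8.16 CPM in controls. All CCl4 libraries were above all controls, with CCl4 replicate 3 the lowest of them. The rise was 2.76-fold (95% interval 2.24 to 3.39, log2 fold change 1.46, adjusted p = 5.52e-05), with a log2 fold change of 1.59 without CCl4 replicate 3 (adjusted p = 7.43e-07).

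Itgal (ENSMUSG00000030830) encodes αL (CD11a), which pairs with β2 as LFA-1 on lymphocytes and other leukocytes and binds ICAMs. It stood at 26.4, 23.8 and 32.1 CPM in CCl4 libraries, against 15.8, 18.97 and 14.9 CPM in controls. The groups did not overlap, and CCl4 replicate 3 was the highest library. The rise was 1.66-fold (95% interval 1.35 to 2.04, log2 fold change 0.73, adjusted p = 0.00224), with a log2 fold change of 0.60 without CCl4 replicate 3 (adjusted p = 0.00108).

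Itgax (ENSMUSG00000030789) encodes αX (CD11c), carried by dendritic cells and by macrophages of injured tissue. It stood at 11.5, 9.45 and 9.87 CPM in CCl4 libraries, against 2.34, 2.27 and 1.91 CPM in controls. The libraries of each group lay close together. The rise was 4.72-fold (95% interval 3.77 to 5.90, log2 fold change 2.24, SE 0.14, adjusted p = 7.84e-06).

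Itgam (ENSMUSG00000030786) encodes αM (CD11b), the complement receptor subunit of monocytes, macrophages and neutrophils. It was the least abundant of the 10, with 65, 80 and 36 counts in CCl4 libraries, against 13, 8 and 7 counts in controls. These are 3.28, 3.96 and 1.77 CPM in CCl4 libraries, against 0.692, 0.432 and 0.371 CPM in controls. The lowest CCl4 library, replicate 3, was at 0.489 of the mean of the other 2 and still above every control. The rise was 5.95-fold with a wide interval (95% interval 3.30 to 10.7, log2 fold change 2.57, SE 0.38, adjusted p = 6.16e-04), and the log2 fold change was 2.84 without CCl4 replicate 3 (adjusted p = 1.77e-05).

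The count of Itgam is uncertain, because 68.7% of its exon bases in the GENCODE M21 annotation also belong to Gm49368, a gene that starts inside Itgam and runs past its end. Gm49368 has a row of its own in the table, with 0 or 1 counts per library. The sources used here do not give how reads that match 2 genes were counted, so the level of Itgam, its share and its place in any order are uncertain. Of the 50-base stretches of the longest Itgax transcript, 9.61% also occur in Itgad, the neighbouring αD gene, whose row held 0 to 3 counts per library. For Itgb5, 8.17% of such stretches occur in the pseudogene Gm38317 (22 to 57 counts per library, against 1218 to 2403 for Itgb5).

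Itgam and Itgax lie close together on chromosome 7 and had the highest fold changes of the 10, while Itgb1 did not differ beyond its spread. Their promoters, with that of Itgb5, are shown to set the myeloid genes beside the broadly expressed ones. The sequences are the 250 bases before the start in RefSeq's table for GRCm38.p6, which held 7 of the 10 subunits (not Itga6, Itgb2 and Itgal). All 4 lie on the plus strand, at chr7:128062390-128062639 for Itgam, chr7:128129300-128129549 for Itgax, chr8:128685404-128685653 for Itgb1 and chr16:33829415-33829664 for Itgb5. Capitals mark GAGGAA on either strand (TTCCTC on the strand shown), a purine-rich core that the myeloid factor PU.1 can bind.
Itgam: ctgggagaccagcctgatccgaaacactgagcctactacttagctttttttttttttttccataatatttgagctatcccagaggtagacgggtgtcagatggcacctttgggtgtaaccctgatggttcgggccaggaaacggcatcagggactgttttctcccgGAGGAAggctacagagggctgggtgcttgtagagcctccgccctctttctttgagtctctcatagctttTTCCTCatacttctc
Itgax: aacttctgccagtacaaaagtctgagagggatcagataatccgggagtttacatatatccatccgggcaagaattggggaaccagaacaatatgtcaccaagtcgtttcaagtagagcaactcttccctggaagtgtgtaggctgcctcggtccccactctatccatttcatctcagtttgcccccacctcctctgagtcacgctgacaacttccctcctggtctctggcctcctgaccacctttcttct
Itgb1: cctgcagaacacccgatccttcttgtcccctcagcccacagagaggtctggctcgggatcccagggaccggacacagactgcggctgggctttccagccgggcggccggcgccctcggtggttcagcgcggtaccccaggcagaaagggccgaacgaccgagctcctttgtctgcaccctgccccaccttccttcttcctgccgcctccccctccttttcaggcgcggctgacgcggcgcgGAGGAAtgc
Itgb5: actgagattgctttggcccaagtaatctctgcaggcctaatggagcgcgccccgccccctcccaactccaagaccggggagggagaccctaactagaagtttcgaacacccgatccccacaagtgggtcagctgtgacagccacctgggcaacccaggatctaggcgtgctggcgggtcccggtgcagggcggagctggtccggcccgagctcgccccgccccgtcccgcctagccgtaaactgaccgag

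GAGGAA was found in 23.3% of all 32851 promoters of this length. It stood 2 times in the promoter of Itgam, 2 times in that of Itgav, 1 time each in those of Itga5 and Itgb1, and not in the windows of Itgax, Itgb5 and Itga1. The GC box GGGCGG, searched on both strands, was found in 32.7% of all promoters. It stood 3 times in Itgb5, 2 times in Itga5 and 1 time each in Itgb1 and Itgam. No base belonged to both motifs in any of the 7 windows. The promoters of Itgam and Itgax held 6 and 5 CpG dinucleotides, near the median of 6 over all promoters, those of Itga1 and Itga5 held 10 and 11, and those of Itgb1, Itgb5 and Itgav held 21, 18 and 18. The first bases after the RefSeq start of Itga5 were in none of its GENCODE M21 transcripts, so its window is less certain than the others. A match is a string of letters and not a measured binding site.

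Levels of different genes were compared per kb of exon (union of the exons in GENCODE M21). Itgb1 was highest in both groups, at 52.2 ± 1.05 CPM per kb in CCl4 livers and 52.7 ± 1.79 in controls (SD, n = 3 each). Itgb5 followed at 29.3 ± 3.40 in CCl4 livers and 18.8 ± 0.467 in controls, and Itga5 at 10.4 ± 0.425 in CCl4 livers and 6.66 ± 0.848 in controls. Below them, in CCl4 livers, came Itgb2 (8.40), Itgav (5.15), Itgal (4.18), Itga1 (2.69), Itgax (2.14), Itga6 (1.81) and Itgam (0.597). No neighbours in the CCl4 order overlapped in their per-library ranges, although Itgax and Itga6 were close (lowest Itgax library 1.97, highest Itga6 library 1.95). With the length of the longest transcript in place of all exons, Itga6 (3.79) stood above Itgax (2.54) in CCl4 livers, and the means of Itga1 and Itgav there were 4.56 and 7.84 CPM per kb.

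In controls the order was Itgb1, Itgb5, Itga5, Itgav (3.83), Itgb2 (3.05), Itgal (2.52), Itga1 (2.32), Itga6 (0.468), Itgax (0.452) and Itgam (0.0992). There the ranges of Itgb2 and Itgal overlapped, as did those of Itgal and Itga1 and those of Itga6 and Itgax. Itgb2 was thus above Itgav in CCl4 livers and below it in controls. With the longest transcript's length, Itga1 (3.93) stood above Itgal (3.17) and Itgb2 (3.13) in controls, where Itgav was at 5.84 and Itga6 at 0.980. The sources name no annotation behind the counts, so the lengths are an approximation.

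**Figure D2:**
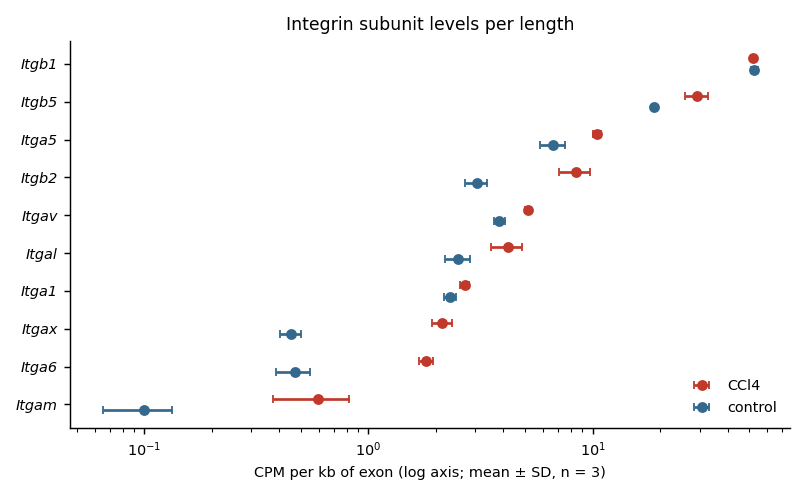
Level per length of the 10 subunits (CPM per kb of exon, logarithmic axis) as mean ± SD of 3 libraries, CCl4 in red above control in blue in each row. Itgb1 is the highest in both groups at 52.2 and 52.7 CPM per kb, and Itgam the lowest at 0.597 in CCl4 livers and 0.0992 in controls.

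Ratios between subunits within a library do not depend on how libraries are scaled. Of 12 ratios, 8 set an alpha subunit over its beta partner, and the other 4 set 2 alpha or 2 beta subunits against each other. Of the 12, 11 did not overlap between groups. No such share was computed for ratios of other gene pairs. Of all single genes tested, 54% did not overlap, with CCl4 above or below control. The ratios over Itgb1 largely restate the changes of their numerators, because Itgb1 itself hardly differed (log2 fold change -0.015). An exact two-sided permutation test of 3 against 3 libraries cannot give a p below 0.1. No ratio could therefore pass 0.05 (adjusted p = 0.109 for each of the 11). Relative to Itgb1, each of its 4 alpha partners was higher in CCl4 livers. The log2 ratio of Itga6 to Itgb1 was -3.83, -3.72 and -3.58 in CCl4 libraries, against -5.51, -5.51 and -6.04 in controls, a difference of 1.98. The differences for Itga5, Itgav and Itga1 over Itgb1 were 0.67, 0.44 and 0.23.

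Itgb5 was also higher relative to Itgb1 (-1.04 ± 0.18 in CCl4 livers and -1.69 ± 0.07 in controls, log2 ratio, n = 3 each), and so was Itgb2 (-3.07 ± 0.22 in CCl4 livers and -4.54 ± 0.21 in controls). Itgav stood lower relative to Itgb5 in CCl4 livers (-0.91 ± 0.12) than in controls (-0.70 ± 0.12). The lowest control library of that ratio, at -0.82, was next to the highest CCl4 library, at -0.83.

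The 3 partners of Itgb2 differed in the direction of their ratios to it. The log2 ratio of Itgam to Itgb2 was -3.13, -2.77 and -3.57 in CCl4 libraries, against -3.78, -4.56 and -4.46 in controls. That of Itgax to Itgb2 was -1.32, -1.52 and -1.09 in CCl4 libraries, against -2.02, -2.17 and -2.10 in controls. That of Itgal to Itgb2 was -0.13, -0.19 and 0.61 in CCl4 libraries, against 0.73, 0.89 and 0.87 in controls. Itgam and Itgax were therefore higher, and Itgal lower, per unit of Itgb2 in CCl4 livers. CCl4 replicate 3 came close to the controls for Itgal and for Itgam. The difference between groups for Itgal over Itgb2 was -0.73, and -0.98 without that library. For Itgam over Itgb2 it was 1.11, and 1.31 without that library. The ratio of Itgax to Itgam overlapped between groups (exact p = 0.7).

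Summed per kb over the 4 alpha subunits that pair with β2, Itgal made up 60.1 ± 5.93% in CCl4 livers and 81.4 ± 1.97% in controls (SD, n = 3 each). Itgax made up 30.9 ± 2.87% in CCl4 livers and 14.7 ± 1.29% in controls. Itgam made up 8.78 ± 3.76% in CCl4 livers and 3.23 ± 1.15% in controls, with the doubt on its count given above, and Itgad 1.27% at most in any library. The Itgam share was 9.23, 12.3 and 4.82% in CCl4 libraries, so CCl4 replicate 3 was near control replicate 1 (4.55%).

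**Figure D3:**
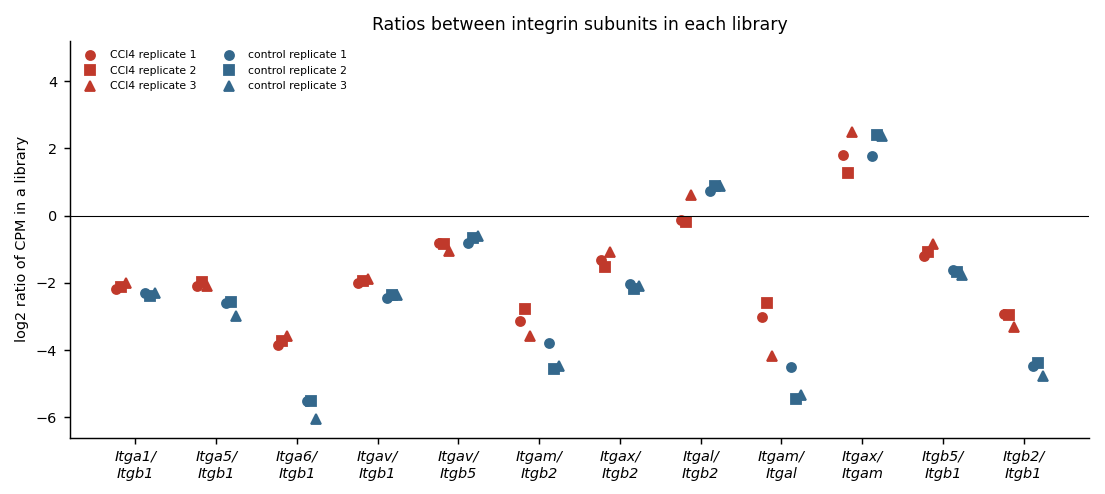
Log2 ratio of the CPM of 2 integrin subunits in each library, for 12 pairs, with CCl4 libraries in red on the left of each pair and control libraries in blue on the right, and symbols for the replicate numbers. The groups are apart in 11 pairs and overlap for Itgax over Itgam, and CCl4 replicate 3 lies nearest to the controls for Itgal over Itgb2 (0.61).

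Markers of leukocytes were read beside the β2 integrins, and their counts stand against 21.2% of all genes called higher and 20.1% called lower. Of 15 macrophage and monocyte markers, 14 were called higher, and their summed level was 1215 to 1329 CPM in CCl4 livers and 483 to 621 CPM in controls; none was at 0. Clec4f, a marker of resident Kupffer cells, was the member without a call, at 102 ± 11.1 CPM in CCl4 livers and 99.1 ± 8.89 CPM in controls (adjusted p = 0.760). Of 10 neutrophil markers, 6 were tested and all 6 were higher, with sums of 31.5 to 34.98 CPM in CCl4 livers and 7.74 to 11.4 CPM in controls. Ly6g, a defining neutrophil marker, was at 0 in all 3 controls and in CCl4 replicate 3, and Mpo was at 0 in control replicate 2.

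Of 14 T and natural killer cell markers, 12 were tested and 1 was higher, with sums of 13.1 to 18.9 CPM in CCl4 livers and 15.8 to 19.9 CPM in controls. Of 10 dendritic cell markers, 5 were higher and 5 had no call, with log2 fold changes from -0.34 to 1.62. Their sums, in which the most abundant members weigh most, were 196, 182 and 282 CPM in CCl4 libraries, against 129 to 153 CPM in controls. The highest of these sums was that of CCl4 replicate 3. Of 7 B cell markers, 2 were higher (24.3 to 29.0 CPM in CCl4 livers and 21.1 to 26.7 CPM in controls). The B cell count was near the share of all genes called higher, and the T and natural killer cell count was below it. The part of these cells in the changes of Itgb2, Itgam, Itgax and Itgal was not tested.

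Markers of the cells that carry matrix integrins were read in the same way, against the same 21.2% higher and 20.1% lower over all genes. Of 12 stellate cell and myofibroblast markers, 7 were higher, with sums of 523 to 656 CPM in CCl4 livers and 341 to 375 CPM in controls. Of 8 bile duct cell markers, 6 were tested and 4 were higher (50.5 to 59.2 CPM in CCl4 livers and 30.004 to 38.5 CPM in controls). Of 12 endothelial markers, 1 was higher and 2 were lower, and their sums overlapped (399.9 to 447 CPM in CCl4 livers and 406 to 435 CPM in controls). Both endothelial counts were below the shares over all genes. The part of these cells in the changes of the matrix integrins was not tested.

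The integrin family has further members, and 16 other subunits were listed, of which 13 passed the filter. Among these 6 were called higher and 1 lower, with a median log2 fold change of 0.43, where 21.2% of all genes were called higher and 20.1% lower. Without control replicate 3 the count called higher was 3 of 13, near the share over all genes. The collagen receptor subunit Itga2 (1.67 ± 0.189 CPM in CCl4 livers and 0.535 ± 0.112 in controls, log2 fold change 1.63, adjusted p = 0.00119) and Itga9 (30.4 ± 2.71 in CCl4 livers and 21.0 ± 0.260 in controls, 0.53, adjusted p = 5.68e-04) rose. Itga8, a subunit of stellate and smooth muscle cells, stood at 20.6, 23.7 and 39.0 CPM in CCl4 libraries, against 10.9, 9.67 and 10.5 CPM in controls. It rose by 1.42 on the log2 scale (adjusted p = 0.00668), and by 1.097 without CCl4 replicate 3, its highest library (adjusted p = 9.74e-06).

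Itgb4, the partner of α6 in epithelia, stood at 1.71, 1.58 and 3.39 CPM in CCl4 libraries, against 1.28, 1.19 and 0.742 CPM in controls (log2 fold change 1.06, adjusted p = 0.0387). Its call was lost in limma-voom (adjusted p = 0.0653) and without CCl4 replicate 3 (0.111, with a log2 fold change of 0.62), control replicate 1 (0.069), control replicate 2 (0.0764) or control replicate 3 (0.132). Itgb8, a partner of αv that activates TGF-beta, was called at 0.80 (adjusted p = 0.0291), and lost its call in DESeq2 (0.089) and without CCl4 replicate 1 (0.0588), CCl4 replicate 3 (0.0832), control replicate 1 (0.0816) or control replicate 3 (0.0979). Itga4, a receptor subunit for VCAM-1, was called at 0.55 (adjusted p = 0.0301) and lost its call without CCl4 replicate 1 (0.0995), CCl4 replicate 2 (0.0865), control replicate 2 (0.0975) or control replicate 3 (0.105). The groups of Itga4 overlapped, with CCl4 replicate 3 (9.58 CPM) below control replicate 1 (9.85 CPM).

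Itgb3, a partner of αv and of the platelet subunit αIIb, was the only one of these 13 called lower. It stood at 3.48, 3.81 and 3.19 CPM in CCl4 libraries, against 5.27, 5.78 and 5.57 CPM in controls (log2 fold change -0.66, SE 0.14, adjusted p = 0.00397). The groups did not overlap. Itga2b, which encodes αIIb, stood at 3.33 ± 0.261 CPM in CCl4 livers and 4.26 ± 0.0932 CPM in controls, without a call (-0.35, adjusted p = 0.0763). The platelet and megakaryocyte markers summed to 3.49 to 4.65 CPM in CCl4 livers and 1.01 to 2.34 CPM in controls. Of 6 listed, 2 were tested and Pf4 was called higher. Gp1bb, a defining one, was at 0 in every library and Gp6 was at 0 in control replicate 1.

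Not called were Itga3 (0.43, adjusted p = 0.0515), Itga7 (0.20, 0.19), Itga10 (0.076, 0.846), Itgae (0.42, 0.285) and Itgb7 (0.29, 0.199), each given as log2 fold change and adjusted p. The count of Itga10 is uncertain, because 33.5% of its exon bases also belong to Gm42957, whose row held 0 or 1 counts per library. Itga3 was called in 6 of the 14 alternatives, and its log2 fold change was 0.23 without CCl4 replicate 3 (adjusted p = 0.131). Itga7 was called with library size alone (0.34, adjusted p = 0.0317). Itga11, Itgad and Itgb6 were below the filter, at means of 0.709, 0.0826 and 0.545 CPM in CCl4 livers and 0.303, 0.089 and 0.161 CPM in controls.

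**Figure D4:**
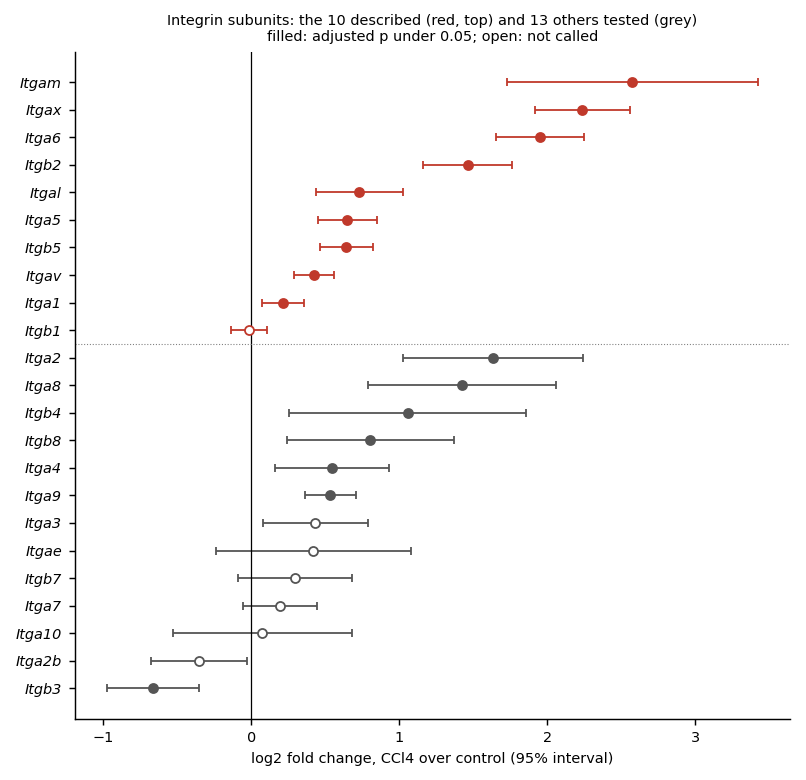
Log2 fold change of CCl4 over control with its 95% interval for the 10 subunits described (red, upper rows) and the 13 other subunits tested (grey, lower rows), with filled points for an adjusted p under 0.05. The points run from 2.57 for Itgam to -0.015 for Itgb1 in the upper rows and from 1.63 for Itga2 to -0.66 for Itgb3 in the lower rows.

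Of the matrix proteins that integrins bind, 38 of 40 listed were tested, and 28 were higher and 1 lower (2 lower without control replicate 3), where 21.2% of all genes were called higher (median log2 fold change 1.15). Nid1, which links laminin to type IV collagen, rose to 78.1 ± 3.13 CPM in CCl4 livers, against 21.2 ± 1.74 CPM in controls (1.88, adjusted p = 6.38e-07). Col4a1, a ligand of α1β1, rose by 1.40 (adjusted p = 4.29e-06), Col6a1 by 1.85 and Col6a3 by 2.34. Lama3, a laminin chain that α6 and α3 integrins bind, was the member called lower, at 3.44 ± 1.30 CPM in CCl4 livers and 9.78 ± 1.18 CPM in controls (-1.50, adjusted p = 0.00161). Fn1, the ligand of α5β1, had 1688 ± 177 CPM in CCl4 livers and 1717 ± 55.0 CPM in controls, without a call (-0.024, adjusted p = 0.841). The sign of this value turned with upper quartile scaling (0.063), with library size alone (0.12) and without CCl4 replicate 3 (0.053). Ibsp was at 0 in every library.

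Of 18 cell surface and plasma ligands, 15 were tested, and 7 were higher and 0 lower (median 0.26), where 21.2% of all genes were called higher. The count called higher was 5 of 15 without CCl4 replicate 1 or without any 1 of the controls. Vcam1, which binds α4β1, stood at 43.9 ± 2.62 CPM in CCl4 livers and 14.0 ± 1.84 CPM in controls (1.65, adjusted p = 4.29e-06). Icam1, which αLβ2 and αMβ2 bind, stood at 25.4 ± 2.42 CPM in CCl4 livers and 12.9 ± 1.43 CPM in controls (0.97, adjusted p = 1.01e-04). Esm1, an endothelial proteoglycan that binds αLβ2, rose by 1.99 (adjusted p = 3.44e-04). C3, whose fragment iC3b is held by αMβ2 and αXβ2, rose by 0.47 (adjusted p = 5.36e-04).

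Of 56 activators, adaptors and kinases, 54 were tested, and 24 were higher and 8 lower (median 0.25). Of all genes 21.2% were called higher and 20.1% lower, so the count called lower was below the share over all genes. Fermt3, the kindlin of blood cells, stood at 14.9 ± 0.888 CPM in CCl4 livers and 6.66 ± 0.267 CPM in controls (1.16, adjusted p = 2.53e-05). The kinase Syk (1.42, adjusted p = 1.05e-05), the paxillin relative Lpxn (2.06, adjusted p = 3.62e-05) and the adaptor Fyb (1.08, adjusted p = 5.31e-05) rose as well.

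Among the lower ones was Fermt2, another kindlin, at 136 ± 15.5 CPM in CCl4 livers and 209 ± 10.5 CPM in controls (-0.62, adjusted p = 4.36e-04). The others named by rule were Kank1, which binds talin (-0.66, adjusted p = 1.01e-04), the docking protein Bcar1 (-0.46, adjusted p = 2.66e-04) and the tensin Tns2 (-0.80, adjusted p = 6.65e-04). With library size alone 32 of the list were higher and 5 lower, and with upper quartile scaling 31 were higher and 7 lower. Tln1, the main talin, had 118 ± 2.21 CPM in CCl4 livers and 121 ± 6.79 CPM in controls (-0.033, adjusted p = 0.678), with a sign that turned with upper quartile scaling (0.053) and library size alone (0.11). Ilk, the integrin-linked kinase, was below the filter with 6 to 13 counts per library, and 89.7% of its exon bases are shared with Taf10 and Rrp8 on the other strand, so its count is uncertain.

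The last list held 9 genes of latent TGF-beta, which αv integrins act on, and of proteins named as its carriers or binding proteins. Of these 8 were higher and 0 lower (median 0.98), where 21.2% of all genes were called higher. Tgfb1 stood at 12.4 ± 0.400 CPM in CCl4 livers and 6.27 ± 0.745 CPM in controls (0.98, adjusted p = 1.42e-04). Ltbp2 (2.78, adjusted p = 1.22e-05) and Ltbp3 (1.53, adjusted p = 3.50e-04), of the family named latent TGF-beta binding proteins, rose. Membership of that family does not by itself show that a protein carries latent TGF-beta. Lrrc32, which holds latent TGF-beta at the cell surface, rose as well (0.73, adjusted p = 4.37e-04).

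**Figure D5:**
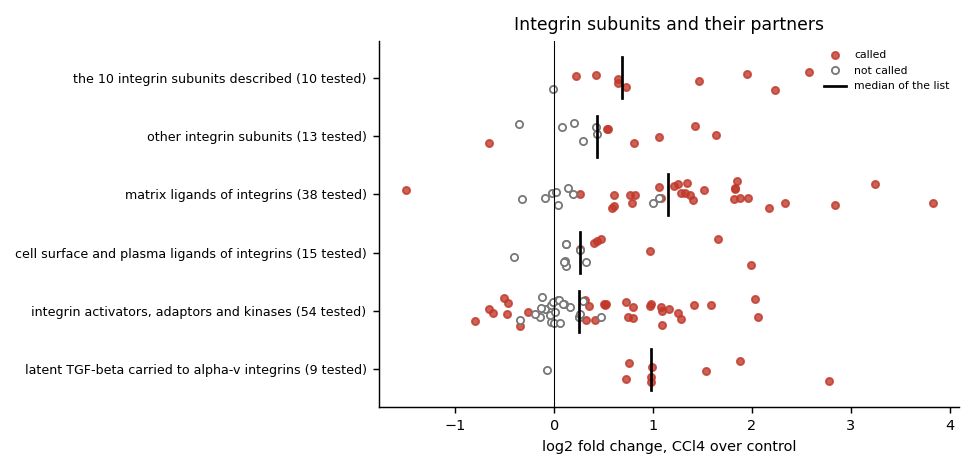
Log2 fold change of CCl4 over control for every tested gene of 6 lists (rows; points are spread vertically for legibility), with filled red points for an adjusted p under 0.05, open points for genes without a call and a black bar for the median of the list. The medians run from 0.25 for activators, adaptors and kinases to 1.15 for matrix ligands.

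The genes whose log2(CPM + 1) over the 6 libraries was most like that of each subunit were taken from 13682 genes with a mean of at least 1 CPM. With 2 groups of 3 libraries, such a correlation mostly carries the difference between groups, so it is given as a description. For Itga6 they were Adcy7 (Pearson's r = 0.9998) and Inpp5d (0.9994), and for Itgax Cttnbp2nl (0.9995) and the protease Ctss (0.9993). For Itgb2 they were the mitotic genes Nusap1 (0.9994) and Aspm (0.9989). For Itgb5 they were Pygb and Eid1 (0.9991 each), for Itga5 Rgs19 and Fam53b, for Itga1 Sh3bp4 and Akap17b, for Itgam Ino80c and Lmnb1, for Itgal Cercam and Lpcat2, for Itgav Maz and a gene without a conventional symbol, and for Itgb1 Ywhaq (0.992) and Tbc1d5 (0.977).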

How the data were processed

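Messenger RNA libraries of liver were made from total RNA with a SMARTER kit, per the labels' protocols. Per the series' design text, adapters and poor reads were removed and the rest aligned with HISAT2. Per the submitters' processing notes, featureCounts then counted reads per gene. Versions, genome build, annotation, strand setting and the handling of multi-gene reads were not given in the sources used here. What the authors deposited are whole-number counts for each gene, not normalized. Of 55359 Ensembl identifiers, 52083 matched a GENCODE M21 symbol.

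Counts were tested with edgeR 4.0.16 in R 4.3.3 (filterByExpr, TMM, glmQLFit and glmQLFTest with robust estimation, Benjamini-Hochberg adjustment). A standard error is the log2 fold change divided by the root of its F statistic, and 95% intervals take the t distribution's quantile. Ratios were compared by exact permutation tests. No pair of libraries within a group was near-identical (chi-square per gene 5.19 to 23), so all 6 were kept as separate. The edgeR test was tried on simulated counts first.

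The members and lists were chosen with earlier results of these data known. The 10 subunits and the 16 others were named whatever their result. From the other lists, the 4 genes of smallest adjusted p in each direction were named, with Fn1, Icam1, Vcam1, Tln1, Fermt3 and Tgfb1, and the 2 genes most like each subunit. Clec4f, Ly6g, Mpo, Pf4, Gp1bb, Gp6, Ibsp, Ilk and the genes overlapping others were picked with their values in view. Alternatives were 3 other scalings, 2 other filters, DESeq2 1.42.0, limma-voom (limma 3.58.1), a block for the replicate number, and leaving out single libraries. Another gene length was tried for levels.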

Additional observations from a re-analysis of the deposited data

How the results depend on the processing

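Of the 9 subunits called higher, 8 kept their call in all 14 alternatives, and Itga1 lost it in 4, so that 8 or 9 were called when each library was left out. Over the alternatives the log2 fold change ran from 2.32 to 2.88 for Itgam, 2.15 to 2.38 for Itgax, 1.81 to 2.10 for Itga6, 1.37 to 1.61 for Itgb2, 0.60 to 0.88 for Itgal, 0.54 to 0.79 for Itga5, 0.54 to 0.79 for Itgb5, 0.38 to 0.57 for Itgav and 0.17 to 0.36 for Itga1. With library size alone the median over all genes stood at 0.147 (log2 fold change), with 4824 genes higher and 1676 lower against 3303 and 3124 in the reported fit, and 5 adaptors were lower. Upper quartile scaling gave 4103 higher and 2177 lower. Values near 0 changed sign without a call: Itgb1 (0.072 with upper quartile scaling, 0.13 with library size alone, -0.036 to 0.0080 when each library was left out), Fn1 (0.063, 0.12 and -0.093 to 0.053), Tln1 (0.053 and 0.11) and Itga10 (-0.11 to 0.32 when each library was left out). With each library left out, 3 to 5 other subunits were higher, 1 to 2 matrix ligands and 7 to 10 adaptors were lower, and 5 to 8 surface and plasma ligands were higher. Matrix ligands called lower numbered 2 with no filter. With the length of the longest transcript, Itga6 came 8 and Itgax 9 in the CCl4 order, and Itga1 came 5 and Itgb2 7 in the control order. The cause of these shifts was not tested.

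Replicate numbers are shared by the groups, but the labels do not say that a number marks a shared animal or day. The deviations of same-numbered libraries correlated at 0.132, 0.0636 and 0.206. Each control correlated best with the CCl4 library of its own number. For control replicate 2 the margin was narrow (0.0636, against 0.0631 with CCl4 replicate 1). CCl4 replicate 2 in turn correlated best with control replicate 1 (0.105). These values do not settle whether the numbers pair the samples. As no label pairs them, the reported fit used no pairing, and a block for the number was an alternative. The replicate block gave 3298 higher and 3118 lower genes, 9 of the 10 subunits higher, and 2 lower matrix ligands. Itgb4 lost its call under it (adjusted p = 0.0661) and Itga3 gained one (0.0412). Itgam had 7 to 80 counts per library and the widest interval of the 10 subunits.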
